A study of Mus musculus with 4 samples.

Results

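The 9 genes described here encode the enzymes that turn squalene epoxide into lanosterol and lanosterol into cholesterol: Lss, Cyp51, Tm7sf2, Msmo1, Nsdhl, Hsd17b7, Ebp, Sc5d and Dhcr7, in pathway order. They were chosen by symbol, as the 9 members of this pathway segment among 22180 genes with a probe set of 1 gene symbol, and each had 1 probe set. Liver RNA of C57BL/6 mice older than 2 months, males and females, was measured on 4 Affymetrix arrays, 1 per group and each of combined RNA. The groups were Chrebp null mice on a diet of 70% fructose for 2 weeks (6 livers), wild-type (WT) mice on that diet for 2 weeks (4 livers), WT mice on it for 3 weeks (7 livers), and WT mice on regular chow (7 livers). ChREBP, encoded by Mlxipl, is a sugar-responsive transcription factor of the liver, and the labels do not describe the null allele further. The series design names 2 comparisons, which share no array: WT after 3 weeks of fructose against chow (the fructose comparison) and Chrebp-null against WT after 2 weeks of fructose (the Chrebp-null comparison).

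Cholesterol is made from acetyl-CoA through mevalonate and squalene. Lanosterol synthase closes the rings, and the later enzymes, which sit in the membrane of the endoplasmic reticulum, remove methyl groups and shift and reduce double bonds. Most genes of the pathway are activated by SREBP2, a membrane-bound factor that is released when sterols in the endoplasmic reticulum are scarce and held back by INSIG proteins when they are plentiful. NF-Y and Sp1, which bind CCAAT and GC boxes, are known partners of SREBP proteins at such promoters.

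Promoter sequence is shown for the 3 genes with the largest differences in both design comparisons, Msmo1, Cyp51 and Lss, and for the 2 with the smallest, Ebp and Sc5d. Each line holds the 250 bases before the annotated start, 5′ to 3′ on the strand of the gene, from RefSeq (GRCm38.p6). Capitals mark matches, on either strand, of the sterol regulatory element form TCACNCCA, the E-box CACGTG, the NF-Y box CCAAT, the Sp1 box GGGCGG and a carbohydrate response element form, CACGNG and CNCGNG with 5 free bases between them.
Msmo1, chr8:64733579-64733828, minus strand: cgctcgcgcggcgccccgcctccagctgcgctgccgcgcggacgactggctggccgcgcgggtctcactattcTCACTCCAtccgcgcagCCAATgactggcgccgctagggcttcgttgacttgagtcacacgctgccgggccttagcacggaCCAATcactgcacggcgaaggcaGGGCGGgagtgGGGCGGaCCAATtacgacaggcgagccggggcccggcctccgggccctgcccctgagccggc
Cyp51, chr5:4104698-4104947, minus strand: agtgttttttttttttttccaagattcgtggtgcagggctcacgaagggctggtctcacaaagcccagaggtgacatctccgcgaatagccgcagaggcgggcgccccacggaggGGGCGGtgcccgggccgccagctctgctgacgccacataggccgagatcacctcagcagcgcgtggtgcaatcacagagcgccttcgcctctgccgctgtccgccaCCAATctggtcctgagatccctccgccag
Lss, chr10:76531355-76531604, plus strand: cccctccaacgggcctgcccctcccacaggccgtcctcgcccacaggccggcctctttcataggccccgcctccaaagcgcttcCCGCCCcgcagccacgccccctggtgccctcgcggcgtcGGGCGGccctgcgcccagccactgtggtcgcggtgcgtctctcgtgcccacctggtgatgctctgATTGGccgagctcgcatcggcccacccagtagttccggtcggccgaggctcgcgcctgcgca
Ebp, chrX:8193513-8193762, minus strand: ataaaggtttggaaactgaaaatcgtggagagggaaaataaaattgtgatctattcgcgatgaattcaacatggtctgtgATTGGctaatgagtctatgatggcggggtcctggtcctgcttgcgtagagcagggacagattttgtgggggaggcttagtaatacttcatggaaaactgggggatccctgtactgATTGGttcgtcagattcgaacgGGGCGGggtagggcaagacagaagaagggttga
Sc5d, chr9:42264301-42264550, minus strand: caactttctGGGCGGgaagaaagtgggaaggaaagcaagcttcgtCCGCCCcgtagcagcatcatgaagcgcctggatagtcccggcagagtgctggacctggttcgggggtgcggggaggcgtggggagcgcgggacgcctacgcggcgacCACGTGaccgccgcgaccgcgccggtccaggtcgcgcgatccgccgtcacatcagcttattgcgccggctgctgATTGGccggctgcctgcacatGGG

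All 9 genes had windows in the promoter table, 11 in all because Dhcr7 has 3 starts, each window running from 250 bases before to 50 bases after a start. The NF-Y box was found in 9 of the 11 windows, at least 1 for every gene, against 37.4% of all 32851 windows. The Sp1 box was found in 10 of the 11 windows, against 35.7% of all windows. Among windows of at least 60% G and C these shares were 31.6% for the NF-Y box and 80.6% for the Sp1 box. The member windows had a median of 64.0% G and C, and all windows 52.7%. The sterol regulatory element form matched only in Msmo1, 177 bases before the start, against 4.36% of all windows. Only exact matches were searched, so a stretch 1 letter away, such as tcacctca in Cyp51, was not counted. The E-box matched in Hsd17b7, in Sc5d and at 1 start of Dhcr7, against 7.15% of all windows. The carbohydrate response element form, which can contain E-box letters, matched in none of the 11, against 0.365% of all windows. Among windows of at least 60% G and C the shares of these forms were 3.53%, 10.8% and 1.03% in the same order. The printed window of Sc5d ends in the first 3 letters of an Sp1 box that crosses the start. The genes with the largest differences and those with the smallest both held NF-Y and Sp1 boxes. A match is a description of letters and not a measured site.

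**Figure D1:**
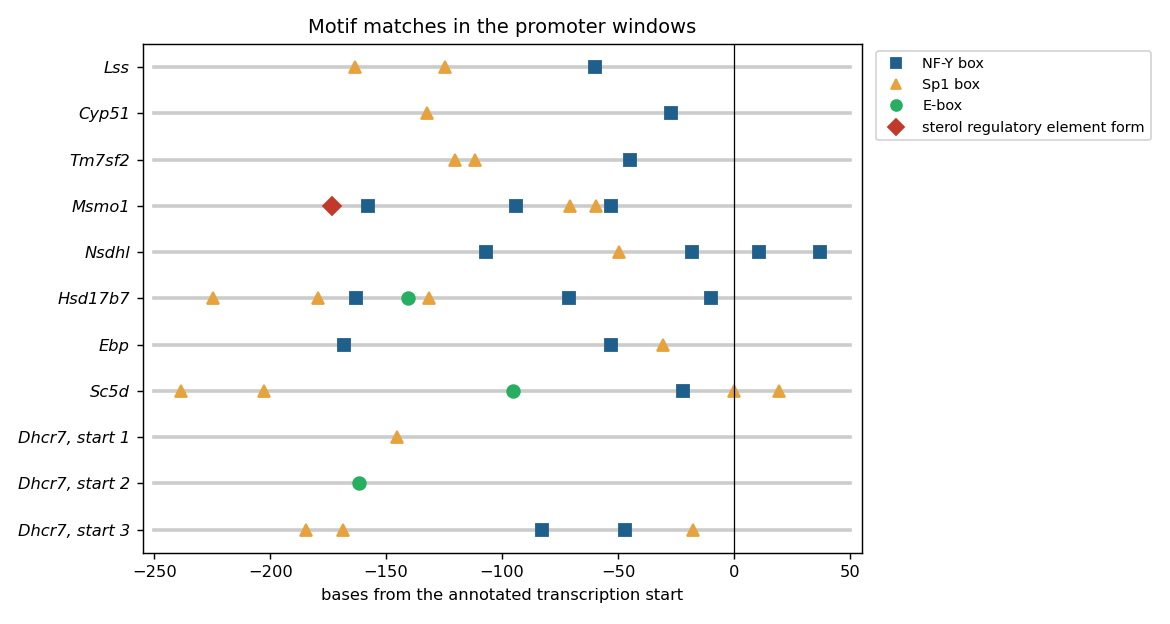
Motif matches in the 11 promoter windows of the 9 genes, in pathway order from the top, by distance in bases from the annotated transcription start (vertical line). Squares are NF-Y boxes, triangles Sp1 boxes, circles E-boxes and the diamond the sterol regulatory element form, which appears in Msmo1 alone, while 9 of 11 windows hold an NF-Y box.

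The arrays had medians of 3.11 to 3.17 in log2 units, and pairs of arrays correlated with r of 0.974 to 0.982 across 41345 probe sets. The targeted gene, Mlxipl (probe set 17443185), read 8.09 in the Chrebp-null pool, 9.83 and 9.64 in WT after 2 and 3 weeks of fructose, and 9.25 on chow, the direction of the genotype label. The labels do not say whether this probe set lies in the deleted stretch of the gene. All 8 hepatocyte markers listed were above the floor on all 4 arrays. None of the 8 passed 2-fold in either design comparison, and their median difference was -0.02 in the Chrebp-null and -0.01 in the fructose comparison. For the null pool against its WT pool the medians were -0.14 for 7 macrophage, -0.03 for 7 stellate and -0.24 for 6 endothelial markers, with Marco 2.66 higher and Lyve1 at -1.01 as the markers past 2-fold. On fructose against chow, macrophage markers had a median of -0.13, stellate markers -0.22 and endothelial markers 0.35, 5 of the 6 endothelial markers were higher, Lyve1 by 0.81, and none of these lists had a marker past 2-fold. The part of these cells in the results was not tested. The floor is a log2 level of 3.52, the median of the genes' mean levels, and a gene was assessed in a comparison where the higher array reached it. Of all assessed genes, 2.03% were at least 2-fold higher and 1.43% lower in the Chrebp-null comparison. In the fructose comparison the shares were 0.64% and 1.16%. The sex-linked genes differed between the null pool and its WT pool: Xist stood at -1.53, and the Y-linked Uty, Kdm5d and Eif2s3y at 0.53, 0.76 and 0.84. In the fructose comparison these 4 stood at -0.07, 0.64, 0.04 and -0.12. The number of males and females in each pool is not given here, and the part of sex in the results below was not tested. There were no replicates, so no standard deviation and no p-value can be given. All differences below are log2 differences between the values of 2 arrays, and a gene was counted where it differed by at least 2-fold (1 on the log2 scale). In pooled liver RNA, fewer cells of a type and less RNA per cell cannot be told apart.

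Of the 9 enzymes, 8 were lowest in the WT pools on fructose, at 2 and at 3 weeks, and higher in both the Chrebp-null pool and the chow pool. Among 11090 genes with a mean level at or above the floor, 24.7% had both WT fructose pools below the other 2 arrays. For Ebp the separation was 0.03, so that its place rests on nearly equal readings, and for the other 7 it was 0.41 or more. In 6 of the 9 the order from the highest was null, chow, then both WT fructose pools, which 14.9% of genes showed. All 9 read 6.79 or more on every array, above the floor.

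**Figure D2:**
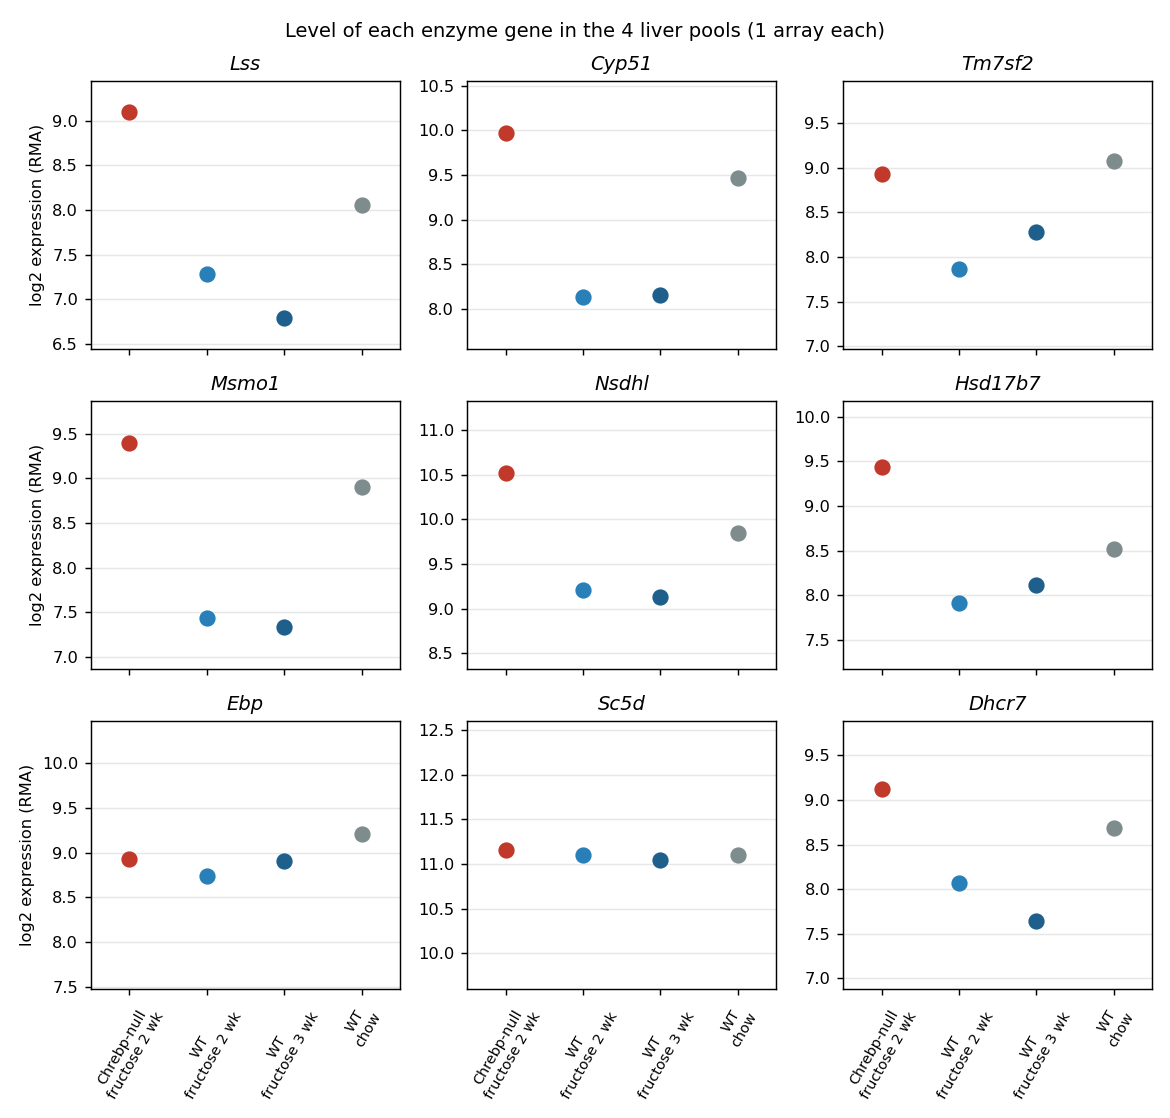
Log2 expression of each enzyme gene, in pathway order, in the Chrebp-null pool and the WT pool after 2 weeks of fructose, the WT pool after 3 weeks of fructose and the WT chow pool. Each point is 1 array of pooled RNA, each panel spans 3 log2 units on its own axis, and no error can be drawn. The WT fructose points are the lowest in 8 panels, and the 4 points of Sc5d span 0.10.

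Lss, lanosterol synthase, closes the sterol rings and opens the segment (probe set 17234552). Its log2 level was 9.10 in the Chrebp-null pool, 7.28 in WT after 2 weeks of fructose, 6.79 in WT after 3 weeks and 8.06 in WT on chow. It had the widest range of the 9 across the pools, 2.31. The null pool was 3.53-fold higher than its WT pool (log2 1.82), rank 35 from the highest among 11631 assessed genes. The 3-week WT fructose pool was 2.42-fold lower than chow (log2 -1.27), rank 39 from the lowest among 11717. The WT fructose pools differed from each other by 0.49, the largest such gap among the 9 genes. With the 2-week pool in its place, the difference from chow was -0.78, under 2-fold. Lss was also the 1 member at least 2-fold higher in the null pool than in chow, at 1.04.

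Cyp51, the cytochrome P450 that removes the first methyl group of lanosterol, gave nearly the same reading in both WT fructose pools (probe set 17445308). Its log2 level was 9.97 in the null pool, 8.14 and 8.16 in WT after 2 and 3 weeks of fructose, and 9.46 on chow. It was 3.57-fold higher in the null pool than in its WT pool (log2 1.83). It was 2.47-fold lower after 3 weeks of fructose than on chow (log2 -1.31), and -1.33 stood in the 2-week pool against the same chow array. The lower of the null and chow levels was 1.31 above the higher of the WT fructose levels, rank 3 from the highest of 11090 genes.

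Tm7sf2, a sterol reductase acting on the product of Cyp51, was one of the members in which the null pool did not exceed chow (probe set 17361921). Its log2 level was 8.93 in the null pool, 7.87 and 8.28 in WT after 2 and 3 weeks of fructose, and 9.08 on chow. The null pool was higher than its WT pool by 1.07, just past 2-fold, and by 0.66 against the 3-week pool. The 3-week WT pool was lower than chow by a difference of -0.80, and the 2-week pool by -1.21. The 2-week pool was therefore the lower one for Tm7sf2, where for Lss and Dhcr7 it was the 3-week pool. Lbr, the lamin B receptor, carries a related sterol reductase activity. It read 6.44 in the null pool, 6.10 and 5.52 in WT after 2 and 3 weeks of fructose, and 6.08 on chow. Its differences were 0.35 in the Chrebp-null comparison and -0.57 in the fructose comparison, both under 2-fold, and the 2-week WT pool stood at 0.01 against chow.

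Msmo1, Nsdhl and Hsd17b7 act in turn to remove the methyl groups at carbon 4 of the sterol. Msmo1, the oxidase, had the largest differences of the 9 in both design comparisons (probe set 17509629). Its log2 level was 9.40 in the null pool, 7.44 and 7.34 in WT after 2 and 3 weeks of fructose, and 8.90 on chow. The null pool was 3.88-fold higher than its WT pool (log2 1.95) and the 3-week WT pool 2.96-fold lower than chow (log2 -1.57). The lower of the null and chow levels exceeded the higher of the WT fructose levels by 1.46, the largest such separation among the 11090 genes. Only 9 genes, 0.0812%, had a separation of at least 1, and Msmo1 and Cyp51 were the members among them. The other 7 were Cyp3a59, Sqle, Tmem200b, Cyp2c55, Mvd, Mmab and Btg2, named here for this separation after their values were seen.

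Nsdhl, the dehydrogenase of the carbon 4 complex and an X-linked gene, read 10.52 in the null pool, 9.21 and 9.13 in WT after 2 and 3 weeks of fructose, and 9.85 on chow (probe set 17535434). Its null difference was 1.31 and its fructose difference -0.71, so only the first passed 2-fold. Hsd17b7, the ketosterol reductase, read 9.43 in the null pool, 7.92 and 8.11 in WT after 2 and 3 weeks, and 8.52 on chow (probe set 17229466). It stood at 1.51 in the Chrebp-null comparison and at -0.41 in the fructose comparison. The carbon 4 enzymes thus all passed 2-fold in the null comparison, and Msmo1 alone of them did so in the fructose comparison. Against chow, the null pool was higher by 0.49 for Msmo1, 0.67 for Nsdhl and 0.91 for Hsd17b7.

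Ebp and Sc5d, the next enzymes in order, differed least. Ebp, an X-linked gene for the isomerase that shifts a ring double bond, read 8.93 in the null pool, 8.74 and 8.90 in WT after 2 and 3 weeks of fructose, and 9.21 on chow (probe set 17540050). Its differences were 0.19 in the Chrebp-null comparison and -0.30 in the fructose comparison. Of the assessed genes, 54.4% differed by at least as much in the first and 36.2% in the second. Sc5d, the desaturase that follows, read 11.15 in the null pool, 11.10 and 11.05 in WT after 2 and 3 weeks, and 11.10 on chow (probe set 17525955). Its differences were 0.05 and -0.05, and 86.0% and 88.4% of assessed genes differed by at least as much. Both lay well inside the spread of unselected genes in these comparisons.

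Dhcr7, which reduces 7-dehydrocholesterol, also the precursor of vitamin D, to cholesterol, differed again although it follows Sc5d (probe set 17485357). Its log2 level was 9.13 in the null pool, 8.07 and 7.64 in WT after 2 and 3 weeks of fructose, and 8.69 on chow. The null difference was 1.06 and the fructose difference -1.05, each just past 2-fold. With the other WT fructose array the values were 1.49 for the null pool over the 3-week pool and -0.62 for the 2-week pool over chow, the second under 2-fold. The size of the differences therefore did not follow the order of the steps.

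The fructose comparison addresses how 3 weeks of the diet bear on liver expression. In it all 9 enzymes were lower and 4 of them, Lss, Cyp51, Msmo1 and Dhcr7, by at least 2-fold. Among the 11717 genes assessed, 1.16% were at least 2-fold lower and 56.5% were lower by any amount. The median of the 9 was -0.80 and that of all assessed genes -0.05. In the 2-week WT pool against the same chow array, 3 members were at least 2-fold lower, Cyp51, Tm7sf2 and Msmo1, against 1.41% of 11622 genes, and the median was -0.64. With the trend of the difference with level removed, the split of the fructose comparison over all genes was 93 at least 2-fold higher and 105 lower, against 75 and 136 as read, and the members called were still 4. Sc5d, at -0.05 as read, stood at 0.003 with that trend removed, so its direction rests on nearly equal readings. Cyp51 and Msmo1 passed 2-fold with each WT pool.

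The Chrebp-null comparison addresses the loss of Chrebp at the same time on the same diet. The sex-linked genes also differed between these pools, as given above, and the part of sex was not tested. In this comparison all 9 were higher and 7 of them, all but Ebp and Sc5d, by at least 2-fold. Among the 11631 genes assessed, 2.03% were at least 2-fold higher and 63.4% were higher by any amount. The median of the 9 was 1.31 and that of all assessed genes 0.10. With the trend of the difference with level removed, the median of all assessed genes moved to -0.004 and the split over all genes to 140 at least 2-fold higher and 225 lower, against 236 and 166 as read. Quantile normalization gave 181 and 180. The same 7 members stood past 2-fold under both. Against the 3-week WT pool, with the null array in both differences, 6 members were at least 2-fold higher, with 3.38% of 11772 genes, and Tm7sf2 was not among them.

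**Figure D3:**
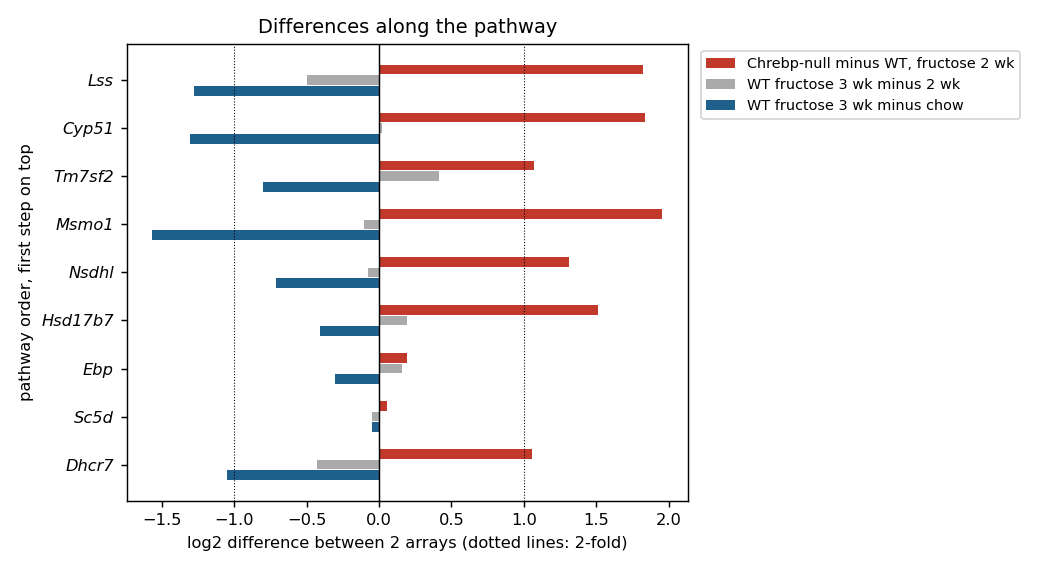
Log2 difference of each enzyme gene in pathway order from the top. Upper bars are the Chrebp-null pool minus WT after 2 weeks of fructose, middle bars WT after 3 weeks of fructose minus WT after 2 weeks, and lower bars WT after 3 weeks minus chow, with 2-fold marked by dotted lines. In 7 of the 9 genes the upper bar passes 2-fold, in 4 the lower bar does, and no middle bar does.

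The WT fructose pools give a scale for these values, although they differ in weeks and in mice and are not replicates. None of the 9 differed by 2-fold between them, where 1.27% of 11648 genes were at least 2-fold higher after 3 weeks and 1.1% at least 2-fold lower. The 9 differences ran from -0.49 to 0.41, and 4 were above and 5 below 0. The SD of this difference over all 11648 genes was 0.43. The null differences of the 7 called members ran from 1.06 to 1.95, and each member's own gap between the WT pools was 0.49 or less. Members were called at a difference of at least 2-fold, so the called ones could not lie inside gaps of this size. For Ebp the gap between the WT pools was 0.16 beside a null difference of 0.19, and for Sc5d 0.05 beside 0.05, so these were nearly equal.

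**Figure D4:**
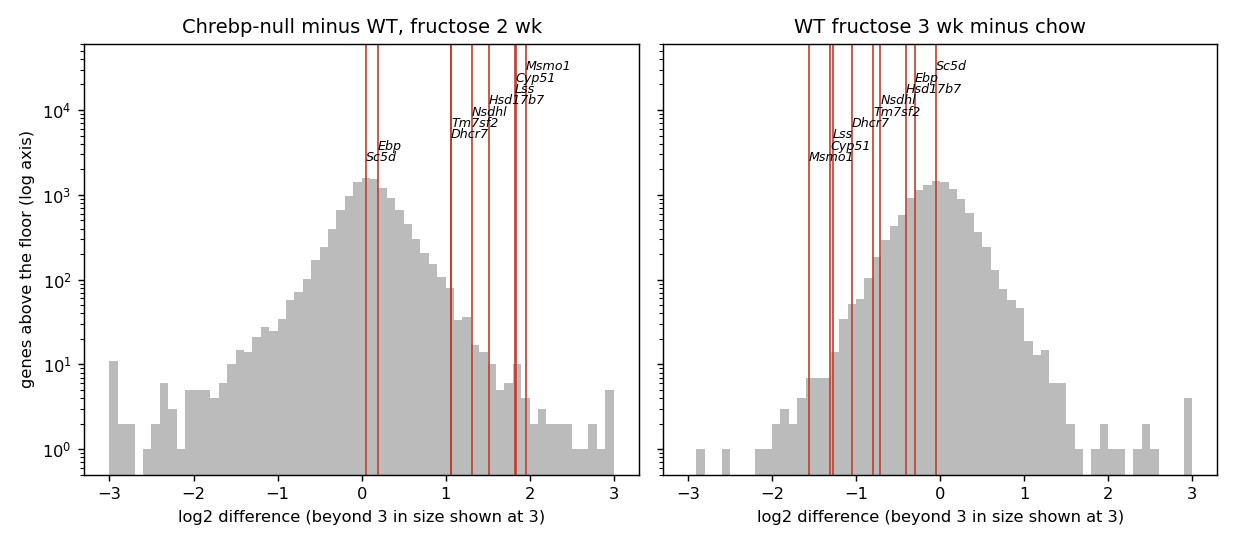
Distribution of log2 differences over all genes above the floor, as the number of genes per bin of 0.1 on a log axis, for the Chrebp-null pool minus WT (left) and WT after 3 weeks of fructose minus chow (right). Vertical lines mark the 9 enzyme genes: on the left 7 lie past 1 in the upper tail, and on the right 4 lie past -1 in the lower tail, with Ebp and Sc5d near the middle in both.

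The 2 design comparisons share no array, so their values for the members can be set side by side. All 9 were lower on fructose and higher in the null pool, as were 37.7% of the 11154 genes assessed in both. Sc5d did so at only -0.05 and 0.05. Lss, Cyp51, Msmo1 and Dhcr7 passed 2-fold both ways, 4 of 22 genes in all that did so, or 0.197% of the genes assessed in both. Across the 9 genes Pearson's r between the 2 differences was -0.84, and across the 11154 genes it was -0.14. These are correlations across genes of the same 4 arrays, and genes are not independent replicates. Hsd17b7 stood off this relation, with a null difference of 1.51 beside a fructose difference of -0.41.

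The null pool was also set beside chow, which differs from it in genotype and diet together. In this comparison Xist stood at -1.81 and Uty, Kdm5d and Eif2s3y at 1.37, 1.16 and 1.23, all past 2-fold, and their part in the values below was not tested. The median of the 9 members was 0.49, against 0.06 for all assessed genes. Only Lss passed 2-fold, 1 of 9 members with 1.66% of 11720 genes at least 2-fold higher, and 7 of 9 were higher by any amount, with 57.4% of those genes. Tm7sf2 and Ebp were lower, at -0.14 and -0.27.

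Other genes of sterol metabolism were taken from lists made with earlier results of these data known. Of the 11 genes listed for the mevalonate and squalene steps, which come before Lss, 8 were analysed. All 8 were higher in the null pool than in its WT pool, 4 by at least 2-fold, with a median of 0.99, where 63.4% of assessed genes were higher and 2.03% at least 2-fold higher. In the fructose comparison all 8 were lower, 3 by at least 2-fold, with a median of -0.78, where 56.5% of assessed genes were lower and 1.16% at least 2-fold lower. Sqle, squalene epoxidase, whose product Lss uses, read 9.40 in the null pool, 7.40 and 7.52 in WT after 2 and 3 weeks of fructose, and 8.73 on chow. Hmgcs1, which makes hydroxymethylglutaryl-CoA, stood at 1.71 in the Chrebp-null and -1.67 in the fructose comparison. Mvd, mevalonate diphosphate decarboxylase, stood at 1.58 and -1.34 in the same order. Mvk, mevalonate kinase, stood at 1.06 and -0.76. The early steps and the lanosterol segment therefore showed medians of the same sign in each comparison.

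Of 9 listed genes for other sterol enzymes and the electron donors of the segment, 6 were analysed, and none passed 2-fold in either design comparison. Of all assessed genes, 2.03% were at least 2-fold higher and 1.43% lower in the Chrebp-null comparison. In the fructose comparison the shares were 0.64% and 1.16%. At such shares, none of 6 does not set the list apart. The medians of these 6 were 0.04 in the Chrebp-null and -0.24 in the fructose comparison. Erg28, a scaffold of the carbon 4 enzymes known from yeast, read 10.32 in the null pool, 9.63 and 9.93 in WT after 2 and 3 weeks of fructose, and 10.23 on chow, differences of 0.70 and -0.30. Cyb5b, a cytochrome b5 that passes electrons, stood at 0.02 and -0.44. Ebpl, a relative of Ebp, differed in the opposite direction to Ebp, at -0.36 in the null pool and 0.26 on fructose.

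Among SREBP2 control and uptake genes, 10 of 12 listed were analysed, none passed 2-fold in the Chrebp-null comparison, where 2.03% of assessed genes were at least 2-fold higher, and 2 were at least 2-fold lower on fructose, as were 1.16% of assessed genes. Srebf2, which encodes SREBP2, read 7.94 in the null pool, 6.95 and 6.18 in WT after 2 and 3 weeks of fructose, and 7.29 on chow. Its null difference of 0.99 was just under 2-fold and its fructose difference was -1.11, while the 2-week WT pool stood at -0.34 against chow. Insig1, the sterol-regulated anchor of the SREBP complex, stood at 0.51 in the null and -1.002 in the fructose comparison. Scap, the escort of SREBP2, stood at -0.36 and -0.67. The medians were 0.03 in the null and -0.31 in the fructose comparison. The list as a whole thus lay closer to 0 than the enzymes did in the null comparison. Genes of cholesterol use and export, 9 of 11 analysed, had medians of -0.31 and -0.34 with none past 2-fold in either. For sterol regulators, 6 of 9 analysed and 5 assessed, the medians were 0.13 and -0.09 with none past 2-fold. At most 2.03% of assessed genes passed 2-fold in a given direction of either comparison. Having none past 2-fold therefore does not set these short lists apart.

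Genes listed for fatty acid synthesis showed the reverse signs. The list is not limited to enzymes of that pathway. It also holds Pklr, a pyruvate kinase of glycolysis, at -2.72 in the null and 0.51 in the fructose comparison. All 10 were lower in the null pool than in its WT pool, 9 by at least 2-fold with a median of -1.47, where 1.43% of assessed genes were at least 2-fold lower. Of the 11631 genes assessed there, 4249 were lower by any amount. All 10 were higher on fructose than on chow, 2 by at least 2-fold with a median of 0.50, where 0.64% of assessed genes were at least 2-fold higher. Of the 11717 genes assessed there, 5096 were higher by any amount. Me1, malic enzyme, stood at -1.76 in the null and 1.18 in the fructose comparison, and Srebf1, which encodes SREBP1, at -1.55 and 0.05. The 9 enzymes and the 8 mevalonate and squalene genes therefore lay on the opposite side of 0 from the fatty acid genes in both comparisons.

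**Figure D5:**
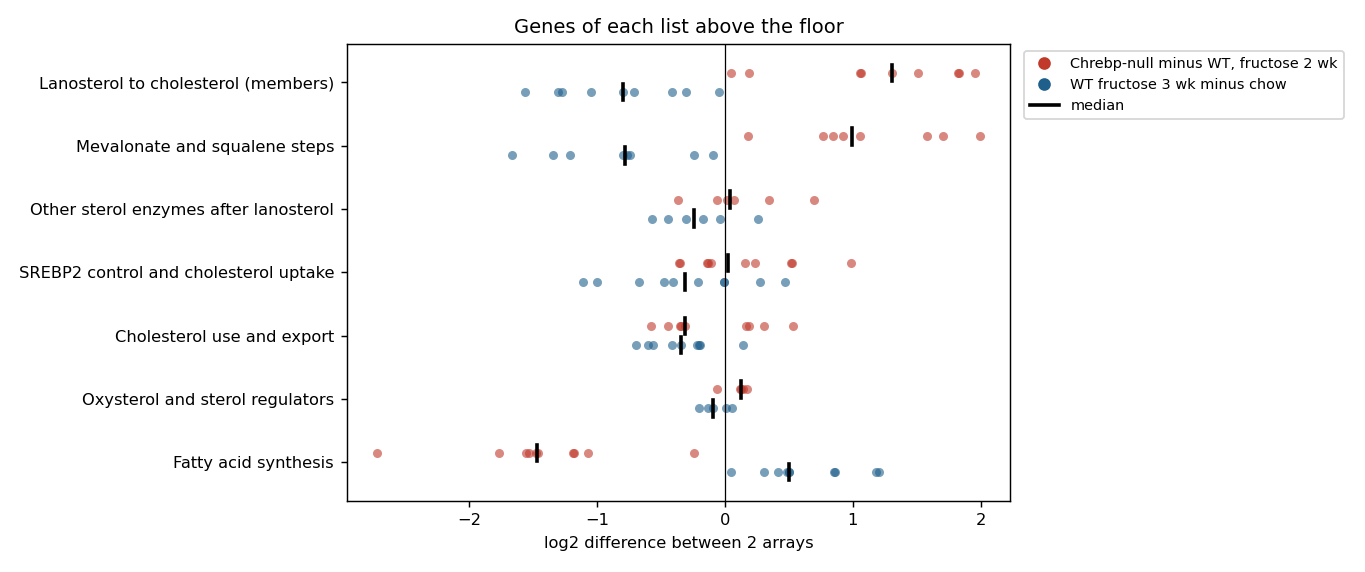
Log2 differences of the genes above the floor in each list, with the 9 enzyme genes on top. In each row the upper points are the Chrebp-null pool minus WT after 2 weeks of fructose and the lower points WT after 3 weeks of fructose minus chow, each point is 1 gene and each bar a median. The enzyme genes have medians of 1.31 and -0.80, the mevalonate and squalene genes 0.99 and -0.78, and the fatty acid synthesis genes -1.47 and 0.50.

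Likeness to the segment was measured over the 4 arrays as the root mean square distance of a gene's centred log2 values from the median centred pattern of the 9 members, among 11090 genes. That pattern was 0.84 in the null pool, -0.53 and -0.54 in WT after 2 and 3 weeks of fructose, and 0.26 on chow. The members set this pattern themselves, so their own distances only describe how they vary: Nsdhl lay at 0.05, Hsd17b7 and Dhcr7 at 0.15 each, and Ebp and Sc5d at 0.52 and 0.55. The 8 closest genes outside the segment were Olfr1269, Hspa2, Mir1938, Igkj1, Lrrc20, Tspan17, 3110045C21Rik and Rab26os, at 0.09 to 0.13. Olfr1269, Hspa2 and Mir1938 read below the floor in both WT fructose pools.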

How the data were processed

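Per the labels' protocols, RNA of livers of 1 group was combined after RNeasy extraction, and biotin-labelled cDNA was made with an Affymetrix WT Plus kit, for 1 array a group. The deposited values are log2 expression of 41345 probe sets, which the authors made with affy and RMA, per the submitters' processing notes. The version, settings and genome build were not stated in the sources. RMA tends to compress large differences. Values were used as deposited, from all 4 columns. Array files hold no read depth, and 1 array per group limits the precision of every value.

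Platform annotation gave 1 symbol for 23521 probe sets, several for 1814 and none for 16010, and only the first were used. Entrez identifiers of 23328 of these were found in RefSeq (GRCm38.p6). Per gene the probe set with the highest mean was used. The members and lists were chosen with earlier results of these data known. Named genes are the members, Mlxipl, Lbr, Srebf2, Sqle, list genes with the largest differences (up to 4 per list and comparison) and the 8 genes closest in pattern. Outside this rule, 5 further genes (Cyp3a59, Tmem200b, Cyp2c55, Mmab and Btg2), the sex-linked genes and the markers Marco and Lyve1 were named after their values were seen. The build behind the array values is unknown, so the coordinates given are those of the RefSeq promoter windows only. Counting was tested on simulated data. Python 3.11.15, numpy 2.4.6, pandas 2.3.3, statsmodels 0.14.6 and matplotlib 3.10.9 were used. A comparison of protein sequences planned for the reductases was not run, and the protein sequences were not analysed here.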

Additional observations from a re-analysis of the deposited data

Results flagged for a closer look

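Sc5d stood on opposite sides of chow in the 2 WT pools on fructose. Its difference from chow was 0.00395 after 2 weeks and -0.0477 after 3 weeks, both close to 0. The same chow array enters both values, and the difference between them was not tested.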

How the results depend on the processing

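Alternatives were quantile normalization, centring on array medians, lowess removal of the trend with level (fraction 0.3), averaging a gene's probe sets, no floor, a floor at the 75 percentile, values below the floor set at it, a 1.5-fold or 3-fold threshold, and exchanging the WT fructose array for the other or for their mean. A value was taken as unmoved where it shifted by less than 0.43, the SD over genes of the 3-week minus the 2-week WT value, and a count where it stayed within 1.5 times. The 3-fold threshold moved both counts, to 3 members higher in the null pool and 0 lower on fructose, because a higher threshold passes fewer genes. It passed 0.395% and 0.128% of assessed genes in these directions. Under the other alternatives 6 or 7 members were called in the Chrebp-null comparison and 3 to 6 in the fructose comparison. The 6 in the fructose comparison came from the 1.5-fold threshold, which 7.05% of assessed genes passed in that direction. In the Chrebp-null comparison 9.16% passed it. Under the remaining alternatives the shares were 0.771% to 3.38% in the Chrebp-null and 0.577% to 1.78% in the fructose comparison. The medians over members lay between 1.28 and 1.38 and between -0.84 and -0.64. Averaging probe sets and the floor settings could not move a member, since each had 1 probe set and was assessed under every floor. A fold threshold cannot move a difference or a median. Only the normalizations, the trend removal and the exchange of the WT fructose array could change these values. Lss moved with the other WT fructose array, to 2.31 over the 3-week pool and to -0.78 for the 2-week pool over chow. No called member changed sign. No paired analysis was possible because each group has 1 array.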
